A study of Mus musculus with 6 samples.

Results

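Heat shock proteins and DnaJ proteins are the main molecular chaperones of animal cells, and 67 of their genes were followed here among 22180 genes measured in mouse gastrocnemius, a calf muscle. Members were chosen by symbol alone: genes named Hspa, Hspb, Hspd, Hspe, Hsph or Hsp90, and genes named Dnaja, Dnajb or Dnajc. The family itself was picked with earlier results of these data known. Each member lay on a probe set (the array's probes for 1 transcript, summarised to 1 value) with a single gene symbol. A gene with several such probe sets was represented by the one with the highest mean over all arrays. The 67 members were 14 Hsp70 and Hsp110 genes, 7 genes with Hspb symbols, 2 chaperonin genes, 2 Hsp90 genes, Hspbp1 and 41 DnaJ genes. Of them, 59 (88.1%) lay above a guide to background, against 56.7% of all genes. The guide, 5.85 on the log2 scale, is the level that 95% of 1390 odorant and pheromone receptor genes, taken as silent in muscle, did not exceed.

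RNA came from 3 mice labelled as muscle-specific TAK1 knockout, taken 3 weeks after deletion of TAK1, and from 3 littermates labelled floxed TAK1, which served as controls. Each mouse had 1 Affymetrix expression array. The labels state no Cre driver, age or sex. By the label alone, non-muscle cells of the tissue are not targeted, which was not tested here. TAK1 is a kinase, encoded by Map3k7, that passes signals from cytokine and TGF-beta receptors on to p38, JNK and NF-kB. Values are log2 summaries made by the authors with RMA, so a difference of 1 is a change of 2-fold, and values of different probe sets are not compared with each other.

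Hsp70 proteins bind unfolded stretches of other proteins and release them in a cycle driven by ATP. DnaJ proteins deliver those substrates and start the cycle, and Hsp110 proteins exchange the nucleotide. Small heat shock proteins hold unfolding proteins without using ATP, and in muscle they bind desmin, filamin and titin at the Z-disc. Hsp90 matures kinases and, in muscle, myosin, while the chaperonin Hspd1 with its lid Hspe1 folds proteins inside mitochondria. Many of these genes are induced by the transcription factor HSF1, which binds repeats of the 5-base unit nGAAn, called heat shock elements.

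The arrays had similar medians, 5.78 to 5.84. Genes of muscle fibres lay high on every array: all 12 markers fixed for this check were above the guide, and their median log2 fold change was −0.01. Of these 12, 9 were lower and 3 higher. In 4 of them every knockout value lay below every control value (33.3%, against 6.65% of all genes), and in 0 above. Mylpf (−0.46), Myh1 (−0.49) and Cacna1s (−0.31) were lower at an unadjusted p under 0.05 (25%, against 4.12% of all genes). The targeted gene Map3k7 had log2 values of 8.20, 8.28 and 8.17 in knockout muscle, against 8.47, 8.32 and 8.42 in control muscle. It was lower in all 3 knockout arrays by a mean of 12.1%, without passing the test over all genes (log2 fold change −0.19, SE 0.09; limma, adjusted p = 0.686). The deleted exons are not named, so this level checks the labels only in part. Among markers of other cells, those of tendon differed most on these arrays. Of 10 tendon markers 9 were lower (median log2 fold change −0.56), and their summed log2 levels were 65.5 to 75.9 in knockout and 73.0 to 79.4 in control arrays. Unadjusted p was under 0.05 for 5, all lower (50%, against 4.12% of all genes). These were Kera (−1.43), Tnmd (−1.02), Fmod (−0.93), Chad (−0.91) and Mkx (−0.38, below the guide). Only 1 marker had every knockout value below every control value (10%, against 6.65% of all genes). The median deviation from each marker's mean was 0.13 in knockout 1 and −0.16 in control 1, so the arrays overlapped. Macrophage, endothelial, fibro-adipogenic and adipocyte markers had medians of −0.04, −0.03, −0.09 and −0.11, with 0 genes at an unadjusted p under 0.05. In bulk RNA, fewer cells of a type and less RNA per cell cannot be told apart.

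The regulatory sequence upstream of several members is shown first, because some of these genes are known to share a control element. Upstream windows from RefSeq (build GRCm38.p6, 250 bases before to 50 after each start) were found for 55 of the 67 members. Both strands were searched, and overlapping matches were merged in the print. The longer heat shock element, 3 alternating units of GAA and TTC with 2 bases between units, was in the windows of 4 members (7.27%), against 0.662% of all 27025 genes with a window. Those 4 were Hspd1, Hspe1, Hsph1 and Dnajb6. The shorter element, 2 facing units (GAANNTTC or TTCNNGAA, also part of the longer one), was in 15 members (27.3%), against 17.0% of all genes. Capitals mark every heat shock element, and the last base of the 250-base lines lies just before the start. Hspb7, Hspb8, Hspb1, Hspa1a and Hspa1b are shown because the values that follow turn on them, and Hspe1 as an example of the longer element.
Hspb7, chr4:141420529-141420778, plus strand: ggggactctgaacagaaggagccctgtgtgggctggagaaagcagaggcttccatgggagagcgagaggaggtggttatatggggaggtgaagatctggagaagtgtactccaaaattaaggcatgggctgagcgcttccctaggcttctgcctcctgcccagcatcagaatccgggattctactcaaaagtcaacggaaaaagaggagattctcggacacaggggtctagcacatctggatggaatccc
Hspb8, chr5:116422865-116423114, minus strand: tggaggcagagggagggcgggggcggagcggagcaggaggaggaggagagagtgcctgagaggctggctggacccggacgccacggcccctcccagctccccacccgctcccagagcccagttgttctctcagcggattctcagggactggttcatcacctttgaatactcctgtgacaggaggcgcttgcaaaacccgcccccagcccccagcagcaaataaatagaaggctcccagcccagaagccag
Hspb1, chr5:135887669-135887918, plus strand: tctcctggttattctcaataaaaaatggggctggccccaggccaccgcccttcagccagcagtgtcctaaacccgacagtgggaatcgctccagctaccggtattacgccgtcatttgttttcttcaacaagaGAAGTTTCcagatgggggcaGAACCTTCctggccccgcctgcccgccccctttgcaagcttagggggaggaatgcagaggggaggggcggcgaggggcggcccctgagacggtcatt
Hspa1a, chr17:34972157-34972406, minus strand: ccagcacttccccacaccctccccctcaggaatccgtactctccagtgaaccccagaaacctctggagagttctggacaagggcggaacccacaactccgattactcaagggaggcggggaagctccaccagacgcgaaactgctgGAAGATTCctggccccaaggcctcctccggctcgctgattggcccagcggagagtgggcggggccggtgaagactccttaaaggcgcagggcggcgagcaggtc
Hspa1b, chr17:34959239-34959488, minus strand: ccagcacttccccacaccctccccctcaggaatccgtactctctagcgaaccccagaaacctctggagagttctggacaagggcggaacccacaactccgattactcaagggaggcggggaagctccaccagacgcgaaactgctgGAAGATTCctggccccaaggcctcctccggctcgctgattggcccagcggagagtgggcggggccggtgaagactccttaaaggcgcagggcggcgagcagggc
Hspe1, chr1:55088053-55088082, plus strand: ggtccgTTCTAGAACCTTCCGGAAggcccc
The Hspa1a and Hspa1b stretches differ at 3 of 250 bases and hold the same unit pair, at 104 to 97 bases before the start. Hspb1 holds 2 such pairs, and no match was found upstream of Hspb7. The pair in the Hspb8 window lies past the printed stretch, at bases 3 to 10 from the start. The Hspe1 element lies between Hspe1 and its neighbour Hspd1, which is read from the other strand, so both windows contain it. The ER stress element (CCAAT and CCACG with 9 bases between them) was in the windows of Hspa5, Hsp90b1 and Dnajc3 (5.45% of members, against 0.137% of all genes). A match describes the letters in the window and is not evidence of binding.

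The comparison asked whether chaperone transcripts differ in muscle labelled as TAK1 knockout. None did by the test over all genes: 0 of 67 members passed an adjusted p of 0.05 (limma), where 0.0947% of all genes did. The lowest adjusted p among members was 0.244 (limma). A per-gene test without shared variance also called 0, with 7 of 67 members and 1612 of 22180 genes at an unadjusted p under 0.05. With limma, 10 members (14.9%) had an unadjusted p under 0.05, against 8.04% of all genes. Of those 10, 8 were higher in knockout muscle (11.9% of members, against 3.93% of all genes) and 2 lower (2.99%, against 4.12%). The knockout and control values did not overlap in 11 members (16.4%), against 13.4% of all genes. They were higher in 9 (13.4%, against 6.74% of all genes) and lower in 2 (2.99%, against 6.65%). Members lay above the background guide more often than all genes did, so a fit of genes above the guide compares genes of closer levels. There 12 of 59 members and 1370 of 12583 genes had an unadjusted p under 0.05. Of those members, 9 were higher (against 4.85% of genes) and 3 lower (against 6.04%). Groups were separate in 18.6% of members and 16.0% of genes. The imbalance was not kept without control 2: 4 members were then higher and 3 lower at an unadjusted p under 0.05 (against 3.95% and 4.49% of all genes). In that fit 9 members were higher and 9 lower with separate groups (13.4% each, against 11.97% and 13.1% of all genes). Without any 1 of the other arrays, 6 or 7 were higher and 1 to 3 lower at an unadjusted p under 0.05. Over all genes those shares were 3.21% to 3.78% and 3.14% to 4.17%. With separate groups, 11 to 18 members were higher (16.4% to 26.9%) and 2 to 6 lower (2.99% to 8.96%). All genes gave 11.3% to 11.9% and 10.1% to 13.0% in the same fits. In all, 44 members (65.7%) had a positive log2 fold change, against 49.9% of all genes, and 38 did without control 2. The median log2 fold change was 0.07 over members and −0.0003 over all genes. It was 0.04 without knockout 1, 0.03 without knockout 3, and 0.04 without control 1 or control 2. Since no member passed, "higher" and "lower" of members describe the 6 arrays only.

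**Figure D1:**
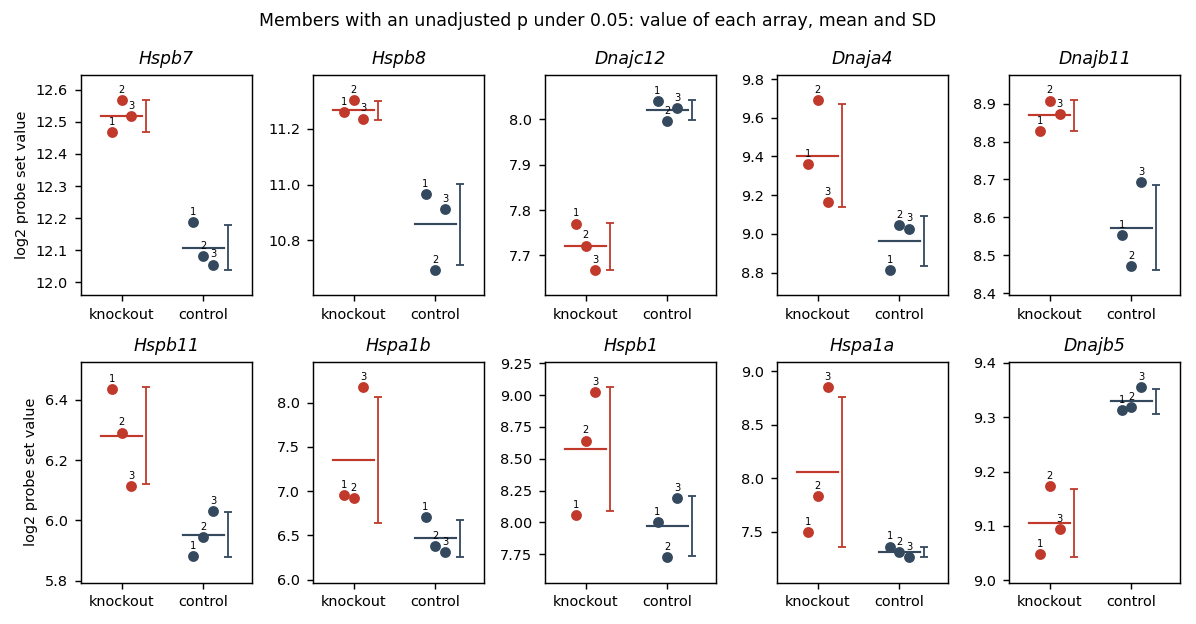
Log2 probe set value (vertical axes, which differ between panels and do not start at 0) of the 10 members with an unadjusted p under 0.05, in 3 TAK1 knockout arrays (left, red) and 3 floxed control arrays (right, dark blue). Points are arrays with their replicate number, horizontal lines are means and bars are SD. Knockout 3 stands above the other arrays in Hspa1a, Hspa1b and Hspb1, and the groups overlap only in Hspb1.

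The lowest p-values among members were those of small heat shock proteins Hspb7 and Hspb8. Hspb7, a heart and skeletal muscle protein that protects the thin filament and filamin C, had log2 values of 12.47, 12.57 and 12.52 in knockout muscle, against 12.19, 12.08 and 12.06 in control muscle. The lowest knockout array lay 0.28 above the highest control array. The mean was 12.52 ± 0.05 in knockout and 12.11 ± 0.07 in control muscle (SD, n = 3 each), a 1.33-fold difference (log2 fold change 0.41, SE 0.09; limma, adjusted p = 0.244). Hspb8, the partner of the co-chaperone BAG3 in removing damaged filamin, had log2 values of 11.26, 11.30 and 11.24 in knockout muscle, against 10.97, 10.69 and 10.91 in control muscle. All knockout values were higher and lay within 0.07 of each other, while control 2 was the lowest array. The difference was 1.33-fold (log2 fold change 0.41, SE 0.10; limma, adjusted p = 0.309). Both genes kept an unadjusted p under 0.05 in all 16 alternative fits, including the 6 that left out an array.

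Hspb1, known as Hsp27 or Hsp25, is a small heat shock protein phosphorylated below p38. Its log2 values were 8.06, 8.64 and 9.02 in knockout muscle, against 8.0004, 7.73 and 8.19 in control muscle. Knockout 1 lay within the control range and knockout 3 was highest. The mean was 1.52-fold higher in knockout muscle (log2 fold change 0.60, SE 0.23; limma, adjusted p = 0.554). The log2 fold change was 0.38 without knockout 3 and 0.86 without knockout 1. An unadjusted p under 0.05 held in only 2 of the 6 fits without an array. A second Hspb1 probe set, dimmer and below the background guide, had a log2 fold change of 0.17 (SE 0.14).

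The other Hspb genes did not share 1 direction. Hspb6 (Hsp20), a small heat shock protein of muscle, had log2 values of 10.01, 9.66 and 9.78 in knockout muscle, against 9.64, 9.67 and 9.74 in control muscle, and the groups overlapped (log2 fold change 0.14, SE 0.11). Hspb3, which pairs with HSPB2 in muscle, was lower, with 7.91, 7.69 and 7.61 in knockout muscle, against 8.14, 7.81 and 8.14 in control muscle. Only knockout 1 reached into the control range (log2 fold change −0.29, SE 0.13; limma, adjusted p = 0.625). Hspb9, a testis protein, had a log2 fold change of −0.09. Hspb11 bears the symbol but is a subunit of the transport machinery of cilia. It was close to background and higher in every knockout array, at 6.44, 6.29 and 6.11, against 5.88, 5.94 and 6.03 in control muscle (log2 fold change 0.33, SE 0.11; limma, adjusted p = 0.487). Of the 7 Hspb genes, 5 were higher and 2 lower (median log2 fold change 0.33, which is the value of Hspb11). Without Hspb11, left out after its values were seen, the median was 0.27. Slow fibre markers, from fibres known for high levels of several small heat shock proteins, had a median log2 fold change of 0.16, with 0 of 10 at an unadjusted p under 0.05. Their summed log2 levels were 88.3 to 93.3 in knockout and 86.6 to 96.8 in control arrays, and their part in the values of these genes was not tested.

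Partners of the small heat shock proteins at the Z-disc were read from a list of 13 genes of chaperone-assisted autophagy and the desmin and filamin network, 12 of them measured. Of these, 0 passed the test over all genes (limma), 9 were higher and 3 lower, and the median log2 fold change was 0.08. An unadjusted p under 0.05 was found for 4 (33.3%, against 8.04% of all genes). Like the marker lists and the other lists, this list was made with earlier results of these data known. Its share is therefore not independent of them. The genes of the 4 follow. Cryab, Flnc and Bag3 were higher, and Synpo2 was lower. Cryab, described in the next paragraph, is itself a small heat shock protein and not only a partner. Bag3, which joins Hsp70 to HSPB8, had log2 values of 10.18, 10.48 and 10.43 in knockout muscle, against 10.02, 10.13 and 10.15 in control muscle. The groups did not overlap, though knockout 1 lay close to the controls (log2 fold change 0.26, SE 0.11; limma, adjusted p = 0.613). For Bag3 an unadjusted p under 0.05 held in only 1 of the 6 fits without an array. Flnc, the filamin of muscle, had 11.64, 12.10 and 12.11 in knockout muscle, against 11.42, 11.62 and 11.65 in control muscle, and knockout 1 overlapped the controls (log2 fold change 0.39, SE 0.15; limma, adjusted p = 0.551). The intermediate filament desmin, Des, was higher in every knockout array by a smaller amount (log2 fold change 0.17, SE 0.09; limma, adjusted p = 0.719). Synpo2, a Z-disc adaptor that binds BAG3, was lower in every knockout array, at 8.66, 8.66 and 8.56, against 8.89, 8.92 and 8.99 in control muscle (log2 fold change −0.31, SE 0.09; limma, adjusted p = 0.422).

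Cryab, alpha B-crystallin, is a small heat shock protein whose symbol lies outside the family's names. Its own probe set had log2 values of 12.05, 12.21 and 11.80 in knockout muscle, against 11.41, 11.69 and 11.74 in control muscle (log2 fold change 0.40, SE 0.14; limma, adjusted p = 0.493). Another probe set carries the symbols of both Hspb2 and its neighbour Cryab, so neither gene can be named for it. There the order was turned: 9.08, 9.15 and 8.91 in knockout muscle, against 9.24, 9.39 and 9.47 in control muscle (log2 fold change −0.32, SE 0.11; limma over every probe set, adjusted p = 0.748). The groups did not overlap on either probe set, in opposite directions.

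**Figure D2:**
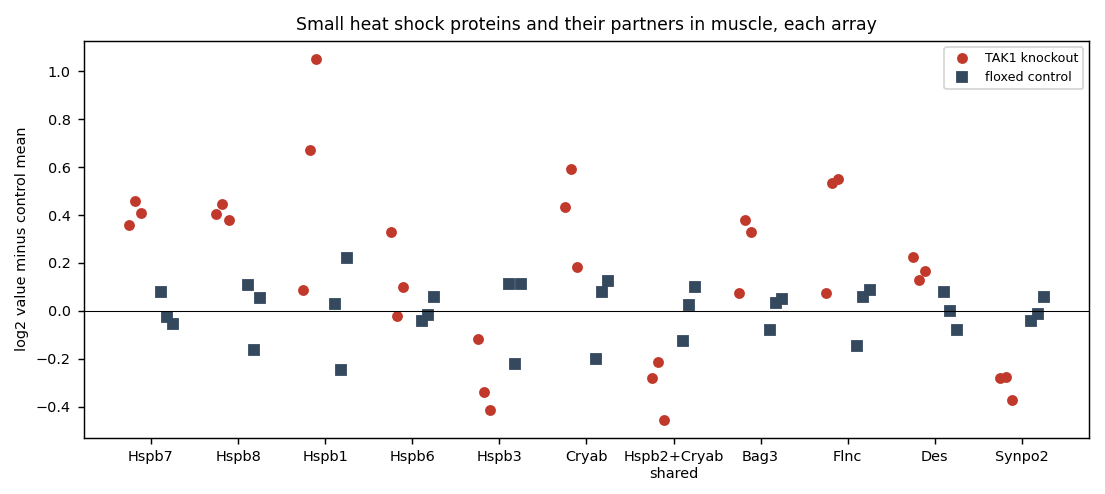
Log2 value minus the control mean of the same probe set (vertical axis) for small heat shock proteins and their Z-disc partners. Red circles are the 3 TAK1 knockout arrays and dark blue squares the 3 floxed control arrays. Hspb7 and Hspb8 form tight knockout groups near 0.41, and Hspb1 spreads widely. Hspb3, Synpo2 and the probe set shared by Hspb2 and Cryab lie below 0 in every knockout array.

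The largest mean differences of any member were in the stress-inducible Hsp70 copies Hspa1a and Hspa1b. Hspa1a had log2 values of 7.50, 7.83 and 8.85 in knockout muscle, against 7.36, 7.30 and 7.26 in control muscle. Hspa1b had 6.95, 6.92 and 8.17 in knockout muscle, against 6.71, 6.37 and 6.31 in control muscle. The groups did not overlap for either gene, and knockout 3 was 1.02 and 1.22 above the next array. Mean differences were 1.68-fold for Hspa1a (log2 fold change 0.75, SE 0.29; limma, adjusted p = 0.560) and 1.84-fold for Hspa1b (log2 fold change 0.88, SE 0.31; limma, adjusted p = 0.504). Without knockout 3 the log2 fold changes were 0.36 for Hspa1a and 0.47 for Hspa1b. These genes are near-identical copies, so their probe sets may read each other's RNA and are not counted as separate evidence. A dim probe set that names both genes lay below the background guide, with a log2 fold change of −0.05.

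Hspa8, the constitutive Hsp70 of the cytosol, had log2 values of 12.29, 12.38 and 12.25 in knockout muscle, against 12.12, 12.29 and 12.47 in control muscle (log2 fold change 0.01, SE 0.11; limma, adjusted p = 0.991). The 95% confidence interval of that difference ran from −0.25 to 0.27. Hspa5 (BiP), the Hsp70 of the endoplasmic reticulum, had a log2 fold change of 0.06 (SE 0.10), and the mitochondrial Hspa9 (mortalin) 0.09 (SE 0.11), with overlapping groups. Hspa4, an Hsp110-type exchange factor, had a log2 fold change of 0.19 (SE 0.11), with control 3 inside the knockout range. In Hsph1, the inducible Hsp110, control 3 was the highest array, as in Hspa8, and lay 0.50 above the next. Hsph1 had 8.74, 8.71 and 8.38 in knockout muscle, against 8.68, 8.62 and 9.24 in control muscle. The log2 fold change was −0.23 (SE 0.18) with all arrays, −0.12 without knockout 3 and −0.04 without control 3. Hspa2, an Hsp70 best known from testis, had a log2 fold change of 0.16 (SE 0.15) and Hspa12a, a distant relative, −0.21 (SE 0.11). Over the 14 Hsp70 and Hsp110 genes, 10 were higher and 4 lower, and the median log2 fold change was 0.07.

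The chaperonin and Hsp90 genes overlapped between groups. Hspd1 (Hsp60) had log2 values of 9.95, 9.997 and 9.88 in knockout muscle, against 9.60, 9.76 and 9.98 in control muscle (log2 fold change 0.16, SE 0.12). Its lid Hspe1 (Hsp10) had 8.09, 8.14 and 8.49 in knockout muscle, against 8.01, 8.17 and 8.10 in control muscle (log2 fold change 0.15, SE 0.13). Both genes share the printed heat shock element. On Hspe1 the highest array was knockout 3, and on Hspd1 it was knockout 2, with control 3 nearly as high. Of the Hsp90 genes, Hsp90aa1, the inducible cytosolic form, had a log2 fold change of 0.12 (SE 0.11) and Hsp90b1 (Grp94), the form of the endoplasmic reticulum, 0.14 (SE 0.10). Hsp90ab1 had no probe set of its own and was not analysed here. Hspbp1, an exchange factor that inhibits Hsp70, had a log2 fold change of −0.06.

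DnaJ genes showed smaller differences than the Hspa1 copies, with log2 fold changes between −0.30 and 0.44. Of 41, 25 were higher and 16 lower, the median log2 fold change was 0.03, and 4 had an unadjusted p under 0.05 (9.76%, near the 8.04% of all genes), 2 in each direction. Dnaja4, an Hsp70 co-chaperone expressed in muscle and heart, had log2 values of 9.36, 9.69 and 9.16 in knockout muscle, against 8.81, 9.05 and 9.03 in control muscle. Knockout 2 was highest and the groups did not overlap (log2 fold change 0.44, SE 0.15; limma, adjusted p = 0.462), with 0.30 without knockout 2. The window of 1 of its 2 starts held heat shock unit pairs at 90 to 83 and 52 to 45 bases before the start. Dnajb11 (ERdj3), the co-chaperone that brings substrates to BiP, had 8.83, 8.91 and 8.87 in knockout muscle, against 8.55, 8.47 and 8.69 in control muscle. The groups did not overlap, and the SD in knockout arrays was 0.04 (log2 fold change 0.30, SE 0.10; limma, adjusted p = 0.470).

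On the lower side, Dnajc12, a DnaJ protein that assists aromatic amino acid hydroxylases, had log2 values of 7.77, 7.72 and 7.67 in knockout muscle, against 8.04, 7.996 and 8.02 in control muscle. The values of each group spanned at most 0.10, and the gap between groups was 0.23 (log2 fold change −0.30, SE 0.09; limma, adjusted p = 0.425). It kept an unadjusted p under 0.05 in all 16 alternative fits. Dnajb5, a DnaJ protein that in cardiac muscle binds the class II histone deacetylase HDAC4, had 9.05, 9.17 and 9.09 in knockout muscle, against 9.31, 9.32 and 9.35 in control muscle. All knockout arrays were lower (log2 fold change −0.22, SE 0.09; limma, adjusted p = 0.588), but an unadjusted p under 0.05 held in only 1 of the 6 fits without an array.

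Other DnaJ genes of interest for muscle overlapped or moved little. Dnajb6, in which mutations cause a limb-girdle muscular dystrophy in people, had log2 values of 7.71, 7.75 and 7.69 in knockout muscle, against 7.64, 7.42 and 7.47 in control muscle. Its groups did not overlap (log2 fold change 0.21, SE 0.10; limma, adjusted p = 0.650). Dnajb1 (Hsp40), the inducible partner of Hsp70, had a log2 fold change of 0.15 (SE 0.13), and control 1 was its highest array. Dnajb4 had −0.14 (SE 0.13). Dnajb2, a neuronal and muscle co-chaperone, had −0.24 (SE 0.14), Dnajb12, a membrane protein of the endoplasmic reticulum, −0.26 (SE 0.15) and Dnajc4 −0.21 (SE 0.12). Dnajb9 and Dnaja2 had 0.10 and 0.07, and Dnajc3, an inhibitor of eIF2 alpha kinases in the endoplasmic reticulum, and Dnajc5 (cysteine string protein), which protects synapses, at −0.13 and −0.03. Dnaja3, a DnaJ protein of mitochondria, depended on the probe set. The brightest of 3 had a log2 fold change of 0.11 (SE 0.11) with overlapping groups. A dimmer one, with a mean above the background guide, had log2 values of 5.98, 5.72 and 6.15 in knockout muscle, against 6.88, 6.41 and 6.31 in control muscle. All its knockout values were lower (log2 fold change −0.59, SE 0.19; limma over every probe set, adjusted p = 0.694). The third lay below the guide (log2 fold change 0.08, SE 0.12), and the mean over the 3 gave −0.13. Dnajc15 was the only other member with separate groups, higher in knockout muscle (log2 fold change 0.24), and was named after its values were seen. The remaining DnaJ genes ranged from −0.17 to 0.22. Dnaja1 shared its only probe set with a microRNA gene, and that probe set had a log2 fold change of 0.01.

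**Figure D3:**
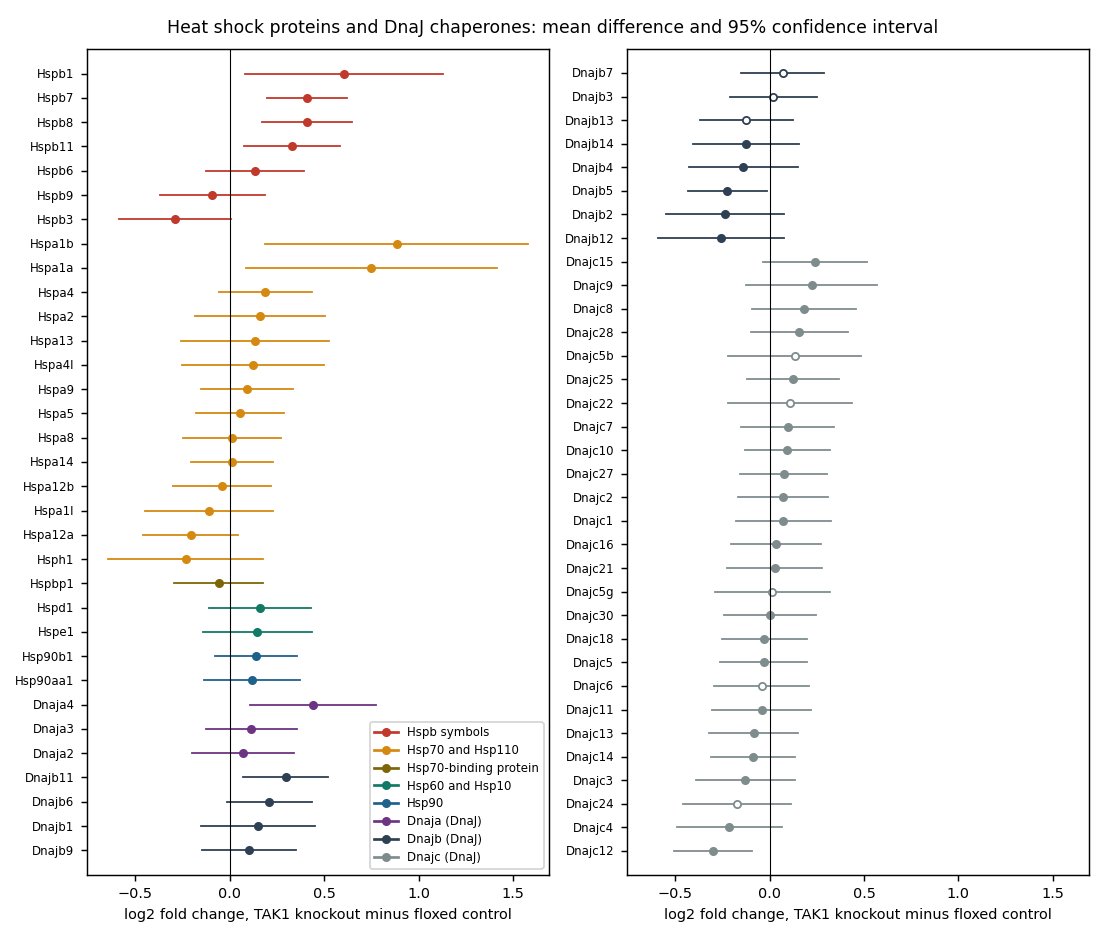
Log2 fold change, TAK1 knockout minus floxed control, of the 67 members (horizontal axis), with 95% confidence intervals from limma as bars. Colours mark families, and open circles mark the 8 members below the background guide. Intervals of Hspb1, Hspb7, Hspb8, Hspb11, Hspa1a, Hspa1b, Dnaja4 and Dnajb11 lie above 0 and those of Dnajb5 and Dnajc12 below 0, before any adjustment for the number of genes.

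Grouped by compartment, which was done after the values were seen, the members differed little. Of 7 mitochondrial members (Hspa9, Hspd1, Hspe1, Dnaja3, Dnajc11, Dnajc15 and Dnajc30), 6 were higher (median log2 fold change 0.11, the value of the brightest Dnaja3 probe set), with 0 at an unadjusted p under 0.05. The 10 taken as members of the endoplasmic reticulum were Hspa5, Hspa13, Hsp90b1, Dnajb9, Dnajb11, Dnajb12, Dnajb14, Dnajc1, Dnajc3 and Dnajc10. Of these, 7 were higher, with a median of 0.08, and Dnajb11 alone had an unadjusted p under 0.05. Other members were not assigned to either compartment, so the counts cover the named genes only. The 15 members with a heat shock unit pair in their window had a median log2 fold change of 0.15, with 12 higher and 5 of them at an unadjusted p under 0.05 (33.3%, against 8.04% of all genes). The 40 members with a window and no such pair had a median of 0.05, with 24 higher and 4 at an unadjusted p under 0.05 (10%, near the share of all genes). The 5 were Hspa1a, Hspa1b, Hspb1, Dnaja4 and Hspb8, whose pair lies after the start. Knockout 3 was the highest array in Hspa1a, Hspa1b and Hspb1. Among members with the longer element, Hspd1 (0.16), Hspe1 (0.15) and Dnajb6 (0.21) were higher and Hsph1 (−0.23) lower. Each of these had an unadjusted p above 0.05. The share among all genes with a unit pair was not computed. The members with the pair include both Hspa1 copies and the Hspd1 and Hspe1 neighbours, which share sequence. This split was not planned in advance, and the difference between these groups was not tested.

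Co-chaperones and other folding genes outside the family gave no call over all genes (limma, 0 in every list). Heat shock factors and their regulators had a median log2 fold change of −0.01 over 7 genes. Hsf2, a heat shock factor that acts with HSF1, was lower in every knockout array, at 8.71, 8.396 and 8.856, against 9.12, 8.858 and 9.05 in control muscle, with knockout 3 close to control 2 (log2 fold change −0.35, SE 0.14; limma, adjusted p = 0.560). Hsbp1l1, named for its likeness to a heat shock factor binding protein, was 0.30 higher, with all values below the background guide. Hsf1 had no probe set of its own and was not analysed here. Of 24 HSP90 co-chaperones, 9 were higher and 15 lower, with a median of −0.04 and 0 at an unadjusted p under 0.05. Among them the myosin chaperone Unc45b had a log2 fold change of −0.07 (SE 0.11). Of 16 HSP70 co-chaperones, 8 were higher and 8 lower, and 2 had an unadjusted p under 0.05 (12.5%, against 8.04% of all genes), Bag3 (higher) and Spag1 (−0.32, below the background guide).

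Of 15 subunits of the chaperonin TRiC and of prefoldin, which fold actin and tubulin, 13 were higher (median log2 fold change 0.06). The prefoldin subunit Pfdn2 alone had an unadjusted p under 0.05 (log2 fold change 0.26, SE 0.10). Of 18 other folding factors of the endoplasmic reticulum, 11 were higher, with a median of 0.02, and of 15 mitochondrial proteases and import factors 11 were higher, with a median of 0.04. Neither list had a member at an unadjusted p under 0.05.

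Arrays differed in chaperone level within each group. Knockout 3 was the highest array in 18 of 67 members (26.9%, against 15.8% of all genes). Control 1 was the lowest in 21 members (31.3%, against 17.9%) and control 2 in 19 (28.4%, against 16.7%). Median deviations from each gene's mean were 0.02, −0.01 and 0.03 in knockout arrays 1 to 3, against −0.05, −0.08 and 0.03 in control arrays 1 to 3, so control 3 lay with the knockout arrays. For the 7 Hspb genes alone they were 0.16, 0.18 and 0.16 in knockout arrays, against −0.11, −0.17 and −0.08 in control arrays, with no overlap. Without Hspb11 they were 0.09, 0.08 and 0.16 in knockout arrays, against −0.10, −0.16 and −0.07 in control arrays. Knockout 3 also had the lowest tendon markers, with a median deviation of −0.95.

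**Figure D4:**
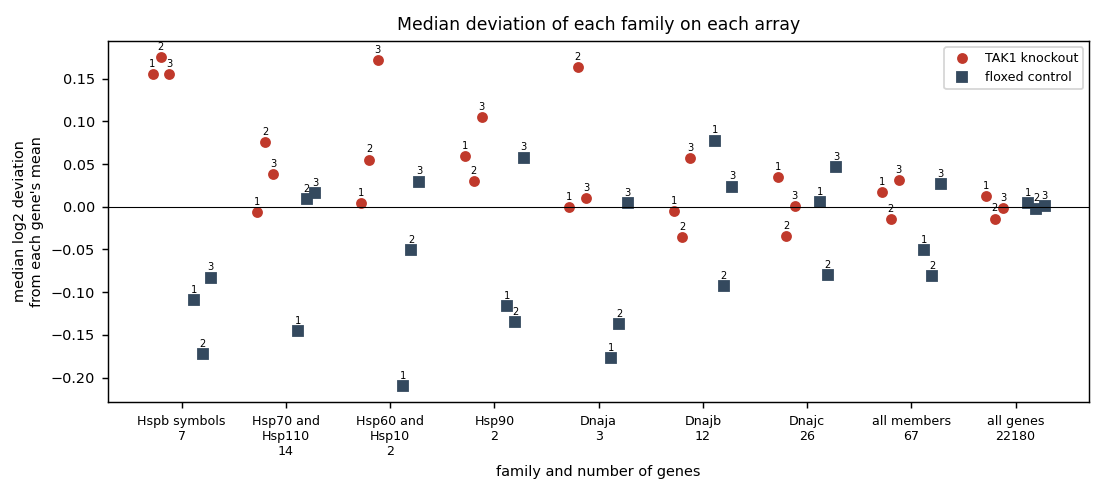
Median over genes of the log2 deviation from each gene's mean over 6 arrays (vertical axis), for each family, all members and all genes, with the number of genes below each name. Red circles are knockout arrays and dark blue squares control arrays, numbered by replicate. The knockout and control arrays separate fully for the 7 genes with Hspb symbols, Hspb11 included, while in the other families and over all members control 3 lies among or above the knockout arrays.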

How the data were processed

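Gene expression in gastrocnemius was compared between 3 TAK1 knockout and 3 floxed control mice, 1 array each. The deposited values were log2 summaries of 41345 probe sets per array. The submitters' processing notes name RMA, oligo and limma, without versions or order. RMA makes the arrays' intensity distributions alike and compresses differences of dim transcripts. No depth applies to arrays, and their number limits the precision. Gene symbols came from the platform annotation in GEO, some of it dated: 23521 probe sets had 1 symbol, 1814 several and 16010 none. The one with the highest mean stood for each of 22180 genes.

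Groups came from the sample titles. All genes were fitted with limma 3.58.1 in R 4.3.3 (lmFit, eBayes, group means, two-sided) with Benjamini-Hochberg adjustment over all genes and a threshold of 0.05. No filter was applied. With 3 against 3 arrays an exact permutation p cannot go below 0.1. The members and lists were chosen with earlier results of these data known, and the ER stress element and compartments after the values were seen. The split of members by heat shock unit pair was not planned in advance. The rule named every member with an unadjusted p under 0.05, the 8 largest differences in each direction among members above background, 32 fixed members (29 with a row of their own) and, of other lists, genes with an unadjusted p under 0.05 and 7 fixed genes.

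The alternatives tried were median centring, quantile normalization, every probe set, the mean over probe sets, an intensity trend with robust prior, array weights, 2 filters on dim genes, a replicate block, a per-gene test, and leaving out each array. On simulated data with 22180 genes and 200 changed, recovery was 51.0% at a 1.5-fold change, 97.6% at 2-fold and 100% at 4-fold, with 6.44% false calls. The simulated noise was normal and independent, with the variances of the limma fit taken as true, and the 200 genes mixed these fold changes. Recovery is an average over genes under those settings. It does not give the chance of calling a noisier member such as Hspa1b (SE 0.31). Figures used matplotlib 3.10.9 (Python 3.11.15).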

Additional observations from a re-analysis of the deposited data

How the results depend on the processing

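The count of 0 called members held under all 16 alternatives, and 7 to 12 members had an unadjusted p under 0.05. Of these, 4 to 9 were higher and 1 to 3 lower, against 3.21% to 5.18% and 3.14% to 6.43% of all genes or probe sets tested. The count of all called genes was 21 in the main test, 6 with every probe set tested, 36 with an intensity trend and robust prior, 45 with genes above the background guide only, 53 with genes above the median level only, 0 with the per-gene test (1612 at an unadjusted p under 0.05), and 2 to 11 without 1 array. Members with separate groups numbered 15 to 22 without 1 array, against 11 with all (22.4% to 32.8%, against 21.6% to 25.1% of all genes in the same fits), as fewer arrays overlap less often by construction. The member median stayed between 0.03 and 0.09. Over the 6 fits without 1 array, an unadjusted p under 0.05 held in 5 for Dnajb11. It held in 4 for Dnaja4, Hspa1b, Hspb11 and Cryab, and in 3 for Hspa1a and Flnc. Among the named genes, 9 of 841 alternative values had the opposite sign: Dnaja3 (−0.13, against 0.11) and Hspa8 (−0.0434) with the mean over probe sets, Hspa8 with array weights (−0.00916), and, over the fits without 1 array, Dnaja2 (−0.0142 to 0.14), Dnajc5 (−0.0940 to 0.0274), Hspa5 (−0.00704 to 0.11) and Hspa8 (−0.0747 to 0.10). The Dnaja3 change follows from a probe set with a log2 fold change of −0.59. The titles give replicate numbers and no pairing of mice. Deviations of arrays with the same number correlated at 0.08, 0.21 and −0.07 across genes, and those of arrays with different numbers at −0.22 to 0.14. With 3 arrays per group these values cannot decide whether littermates were paired. With the replicate block 17 genes and 0 members were called. In that fit 10 members had an unadjusted p under 0.05, and the member median was 0.07. No scan batch was tested. Signal limits the 8 members below the background guide.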
